A study of Homo sapiens with 36 samples.

Results

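HepG2 cells exposed to 0.5 mM acetaminophen (APAP) for 12 or 24 h were compared with cells given the solvent, 0.5% dimethyl sulfoxide (DMSO), for the same times. The comparison comprises 12 of the 36 Affymetrix arrays of the series: 3 of 0.5 mM APAP and 3 of DMSO at 12 h, and 3 of each at 24 h, chosen by the dose and time in the sample titles. The other arrays are 10 mM APAP at 12 and 24 h and all 3 treatments at 48 and 72 h. HepG2 is an established human line from a hepatocellular carcinoma. It was grown in supplemented minimal essential medium, and all groups received fresh medium with their agent when nearly confluent. The labels call the 3 arrays of a group biological replicates, but they do not say whether these were separate cultures, and the p-values measure only the spread between them. They also do not say whether the APAP medium held DMSO, so an effect of APAP and of a difference in solvent cannot be told apart against the DMSO arrays. RNA extraction is described for 24 h alone, and the 12 h label therefore rests on the titles and the time label.

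Acetaminophen is an analgesic that the liver clears mainly by joining it to glucuronic acid or sulfate. A minor share is oxidised by cytochrome P450 enzymes to a reactive quinone imine, which glutathione captures and which binds cell proteins when glutathione runs out. HepG2 cells are known to hold little of the P450 enzymes of adult liver. The table gives each gene by an Ensembl identifier alone, and no table used here pairs these identifiers with names (0 of 18919 matched). The presence of hepatocyte markers in the cells could therefore not be checked, and the genes below are described by their levels, their size of change and their behaviour in the other groups.

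Among the 12 arrays, the lowest correlation between arrays of a group was 0.995 over all genes, and some arrays of the series stood apart. DMSO 24 h replicate 1 had a mean of 5.86 on the rows of the dap spike-in, an RNA added during labelling, against 11.8 to 13.2 in the other 11 arrays. Its limma array weight was 1.11. The lowest weight among the 12 arrays was 0.518, in 0.5 mM APAP 24 h replicate 1. DMSO 48 h replicate 1, which enters only the estimate of spread and the later comparisons, had a dap mean of 3.15 and a limma array weight of 0.367, among the lowest of all arrays. A pair of later low-dose arrays, replicate 2 at 48 h and replicate 3 at 72 h, had actin control levels that were 3.63 and 3.97 higher at the 3′ end than at the 5′ end, against 1.49 to 2.45 in the other 34 arrays, and they enter in the same way. Some 10 mM arrays also had a low dap mean: 6.55 in 12 h replicate 1, 6.92 in 24 h replicate 2, 6.30 in 48 h replicate 1 and 2.93 in 72 h replicate 1. Those of 12 and 24 h enter the direct test of the 2 doses. Values below include all these arrays unless a sentence says that one was left out.

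Averaged over 12 and 24 h, 23 genes stood higher and 7 lower at 0.5 mM APAP than with the solvent. Each change was the mean of the difference at 12 h and the difference at 24 h on the log2 scale, tested with limma in a fit of all 36 arrays, and a gene was counted at an adjusted p under 0.05 over 18919 genes. The 30 genes were 0.159% of those tested (0.122% higher, 0.037% lower). The 23 higher genes rose by a median of 1.47-fold, from 1.21-fold to 2.32-fold. The 7 lower genes fell by a median of 1.31-fold, from 1.24-fold to 1.41-fold. In all, 11 of the 23 higher genes and 0 of the 7 lower genes changed by at least 1.5-fold. Before adjustment, limma gave a p under 0.05 to 917 higher and 660 lower genes, 8.34% of genes, where that threshold alone would give 5%. In these bulk samples, fewer cells expressing a gene and less RNA per cell cannot be told apart. The adjusted count was 9 without DMSO 24 h replicate 1, all among the 30, and 86 without DMSO 48 h replicate 1. With the GAPDH measure of RNA condition described at the end as a covariate, 14 genes passed, all higher, and none of the 7 lower genes did.

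The estimated early changes were small. The middle 90% of log2 changes lay between -0.18 and 0.20, and the whole range was -0.75 to 1.22. The estimate reached 2-fold in 1 gene upward and in 0 genes downward. Taken gene by gene, the 95% interval of the change stayed within 1.5-fold of DMSO in 18275 genes (96.6%) and within 2-fold in 18848 genes (99.6%). The median half-width of that interval was 0.18 on the log2 scale. For most genes the data therefore bound the early change in array signal at 0.5 mM to less than 1.5-fold. Smaller changes were often not detectable with 3 arrays a group. The bound covers many genes of low signal: 43.3% of genes had a mean level of at least log2 4. No detection call was available, so it is not a bound on RNA for genes that the arrays did not detect.

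The highest-ranked gene was ENSG00000197299. At 12 h its log2 levels were 6.74, 6.61 and 6.94 at 0.5 mM and 5.33, 5.65 and 5.58 in DMSO. At 24 h they were 5.40, 5.64 and 6.18 at 0.5 mM and 4.70, 4.41 and 4.55 in DMSO. All 0.5 mM arrays lay above all DMSO arrays of the same time, and both treatments were lower at 24 h than at 12 h. The mean change was 1.22 ± 0.14 (SE; 2.32-fold; limma, adjusted p = 4.5e-05). The 12 h difference was 1.24 and the 24 h difference 1.19. At 10 mM the levels were higher still, with means of 7.29 ± 0.35 at 12 h and 6.67 ± 0.15 at 24 h (SD, n = 3).

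The gene ranked second among those that rose was ENSG00000174371, with levels of 8.03, 8.21 and 8.03 at 0.5 mM and 7.36, 7.08 and 7.16 in DMSO at 12 h. At 24 h its levels were 6.84, 6.42 and 7.04 at 0.5 mM and 5.68, 6.26 and 5.56 in DMSO. The groups again did not overlap at either time, although the lowest 0.5 mM array and the highest DMSO array at 24 h lay close together. The change was 0.91 ± 0.15 (1.88-fold; limma, adjusted p = 0.0068), similar at 12 h (0.89) and 24 h (0.94). Its 10 mM means were 8.58 ± 0.15 at 12 h and 7.57 ± 0.38 at 24 h (SD, n = 3).

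Of the genes that fell, ENSG00000153944 had the smallest p. Its 12 h levels were 4.74, 4.69 and 4.71 at 0.5 mM and 5.10, 5.09 and 5.09 in DMSO, and its 24 h levels were 4.79, 4.67 and 4.76 against 5.25, 5.10 and 5.05. The 0.5 mM arrays were below DMSO throughout, and 10 mM was lower again, with means of 3.83 ± 0.12 at 12 h and 4.11 ± 0.14 at 24 h (SD, n = 3). The change at 0.5 mM was -0.39 ± 0.07 (1.31-fold lower; limma, adjusted p = 0.013). Without DMSO 24 h replicate 1 it was -0.36 and missed the threshold (adjusted p = 0.0503).

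The next gene downward was ENSG00000066084. At 12 h it stood at 7.61, 7.72 and 7.52 at 0.5 mM and at 7.96, 7.93 and 8.00 in DMSO, and at 24 h at 7.68, 7.72 and 7.91 against 8.15, 8.01 and 8.21. The groups did not overlap, and the change was -0.35 ± 0.06 (1.27-fold lower; limma, adjusted p = 0.013), equal to 2 decimals at both times. With the GAPDH covariate both lower genes missed the threshold, with an adjusted p of 0.0528 in limma for each. The 10 mM means were 7.43 ± 0.02 and 7.10 ± 0.17 (SD, n = 3), below both other groups. For each of the 4 genes the 0.5 mM arrays thus lay between DMSO and 10 mM in mean level at both times.

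**Figure D1:**
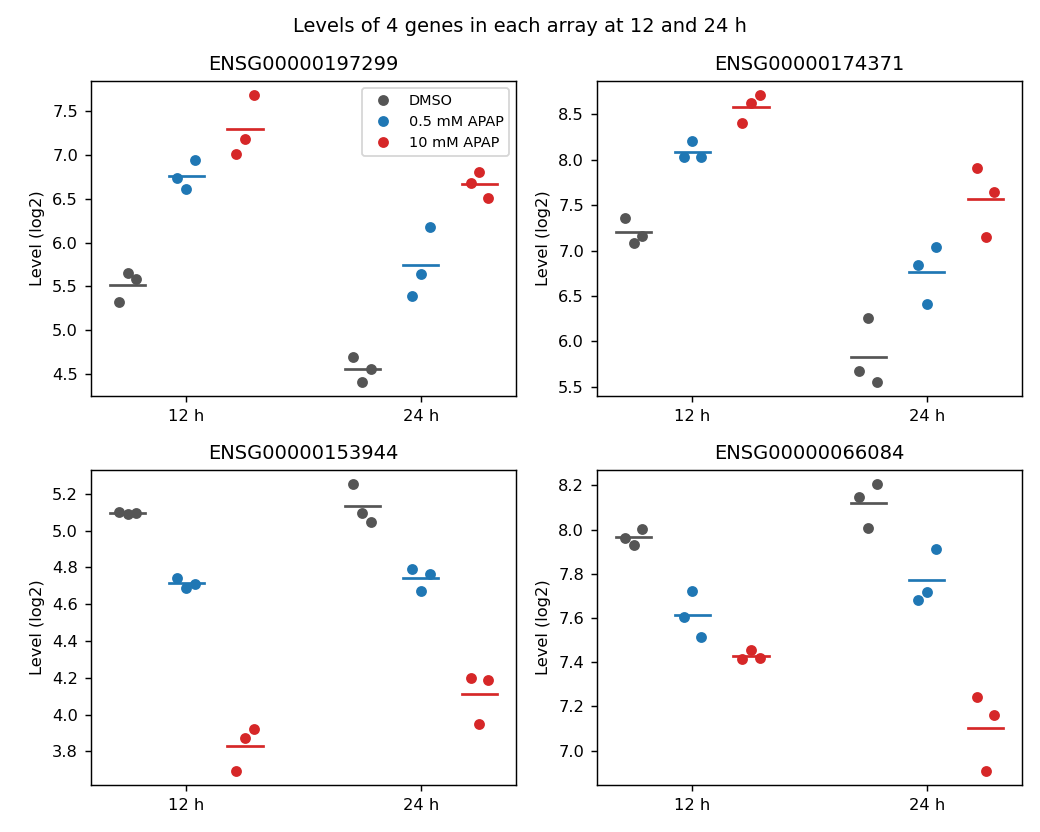
Log2 level of the 2 highest-ranked genes that rose (top) and the 2 that fell (bottom) in each array at 12 and 24 h; points are arrays in replicate order and lines are group means (n = 3). For each gene the 0.5 mM points do not overlap the DMSO points of the same time, and the 0.5 mM mean lies between those of DMSO and 10 mM. The genes were chosen by smallest p on these arrays, so the lack of overlap with DMSO largely follows from the choice. Over all genes, 0.5 mM lay wholly above DMSO at both times in 1.47% and wholly below in 0.941%.

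The 30 genes were not confined to the bottom of the intensity range. The mean level over all arrays was at least log2 4 in 19 of the 23 higher genes and 6 of the 7 lower genes, against 43.3% of all genes. Their median levels were 5.96 and 7.72, against 3.41 over all genes. The genes under log2 4 had mean levels of 2.77 to 3.80, where the array medians were 3.32 to 3.46, and no detection call was available for them. At 12 h, the 0.5 mM arrays lay wholly above or below the DMSO arrays in 22 of the 23 higher genes and all 7 lower genes. At 24 h this held for 19 and 7 genes. These counts follow from the way the genes were called. Over all genes, 0.5 mM lay wholly above DMSO in 7.8% at 12 h and 6.58% at 24 h, and wholly below in 5.9% and 5.49%.

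**Figure D2:**
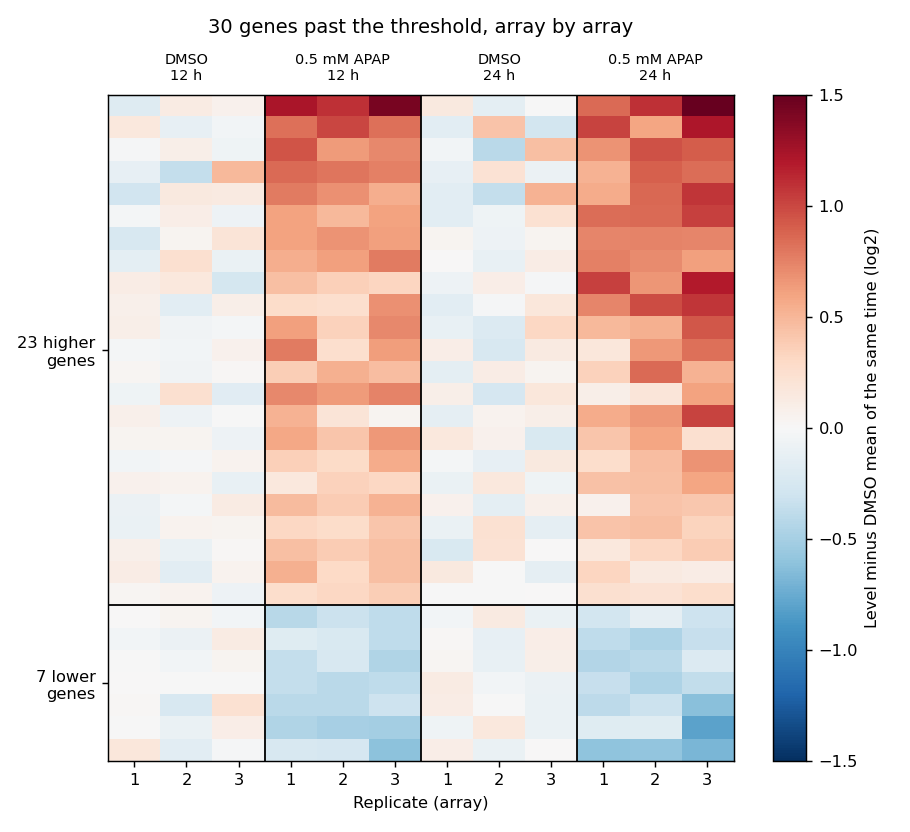
Level of each of the 30 called genes in each of the 12 arrays, as the log2 difference from the DMSO mean of the same time (red above, blue below); rows are genes ordered by mean change and columns are replicates. The 3 arrays of 0.5 mM APAP at each time show the same colour in most rows, and the DMSO arrays scatter around 0.

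At each time alone, few genes passed. At 12 h, 1 gene was higher and 0 lower (0.00529% of genes), and at 24 h, 2 were higher and 1 lower (0.0159%). Before adjustment, limma gave a p under 0.05 to 865 genes at 12 h (4.57%) and 1168 at 24 h (6.17%). That threshold alone would give 5%, and the 12 h share did not exceed it in this fit. The 12 h number depended on the fit. It was 1263 in limma with only the 12 arrays and 1976 with array weights, but 852 with the 24 arrays of 0.5 mM and DMSO. Among the 23 higher genes the change was above 0 at both times in every gene, with medians of 0.55 at 12 h and 0.65 at 24 h, and among the 7 lower genes it was below 0 at both times, with medians of -0.37 and -0.39. Over all genes, which were not chosen for this, r between the 12 h change and the 24 h change was 0.33 on the log2 scale. The 2 differences share no array, and genes are not independent replicates. In 278 genes (1.47%) the 0.5 mM arrays lay wholly above DMSO at both times, in 178 (0.941%) wholly below at both, and in 59 (0.312%) above at one time and below at the other.

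No gene passed a test of the difference between the 2 times. With limma, 0 genes had a 0.5 mM effect at 24 h that differed from that at 12 h (534 at an unadjusted p under 0.05, 2.82% of genes), and the count was also 0 under every alternative listed in the closing section, with 126 to 973 at an unadjusted p. This test was coarser than that of the mean: the median standard error was 0.17 for the difference between times and 0.09 for the mean. In simulated arrays it found 25.4% of differences of 0.5 log2 and 74.6% of those of 1. Those arrays held 200 planted differences, and 136 genes passed. With so many calls the adjusted threshold is easier to pass, so a lone difference would be found less often. Among the 30 genes, the largest gain between the times was in a gene with 0.37 at 12 h and 0.96 at 24 h, and the largest loss in a gene with 0.70 at 12 h and 0.29 at 24 h. Neither passed the test of the difference (adjusted p = 1 in limma for both).

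**Figure D3:**
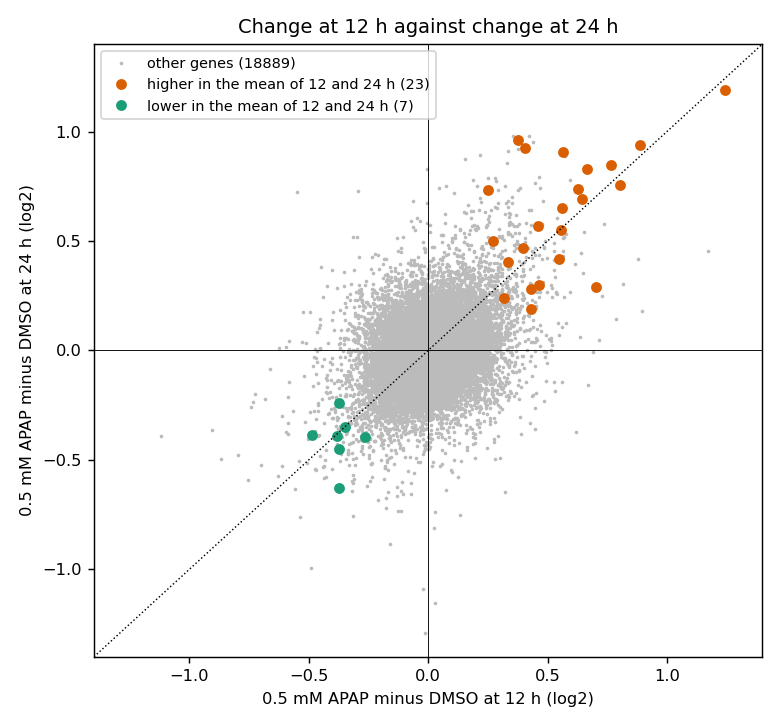
Log2 change at 0.5 mM against DMSO at 12 h (x axis) and 24 h (y axis) for 18919 genes; the dotted line marks equal change. The 23 higher genes lie at the upper right and the 7 lower genes at the lower left, while over all genes r is 0.33.

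The later low-dose arrays show what became of these genes, since the differences at 48 and 72 h use other arrays than the differences at 12 and 24 h. All 36 arrays share the estimate of spread, so the later arrays had a part in which genes passed early. Averaged over 48 and 72 h, the change was above 0 in 22 of the 23 higher genes, with a median of 0.51, and below 0 in all 7 lower genes, with a median of -0.29; over all genes 52.1% were above 0. In that later comparison 15 of the 23 passed the test as higher, where 3.32% of all genes did, and 4 of the 7 passed as lower, where 1.42% did. Without DMSO 48 h replicate 1, 14 of the 23 (2.05% of all genes) and 3 of the 7 (0.735%) passed, with medians of 0.41 and -0.24. Without the pair of arrays of high actin difference, 13 of the 23 (1.99% of all genes) and 1 of the 7 (0.814%) passed, with 21 above 0 and 7 below 0 and medians of 0.44 and -0.21. With all arrays, the median of the 23 genes was 0.81 at 48 h and 0.28 at 72 h. ENSG00000197299 stood at 1.05 (limma, adjusted p = 1.5e-05) and ENSG00000174371 at 1.15 (adjusted p = 5.6e-06) in the later mean. The lowered ENSG00000153944 stood at -0.33 (adjusted p = 0.0024) and ENSG00000066084 at -0.23 (adjusted p = 0.025).

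Only 1 of the 30 genes passed the test of a difference between the early and the later effect. Its change was 0.48 ± 0.09 at 12 and 24 h and -0.12 at 48 and 72 h, a difference of -0.60 (limma, adjusted p = 0.025). Its mean level of 2.77 was below every array median. Before adjustment, limma gave this difference a p under 0.05 in 5 of the higher genes and 2 of the lower genes. Genes that did not pass may still have differed. The 30 genes were also chosen on the early arrays that enter this difference. Over all genes, 43 differed between early and late (0.227%; 1131 at an unadjusted p under 0.05), of which 39 stood higher at the later times. In those 39 genes the 0.5 mM change had medians of -0.01 at 12 h and 0.33 at 24 h. At 48 and 72 h the medians were 1.57 and 1.13. The genes were chosen by this difference, so lower early than later medians follow from the choice. From 48 to 72 h in DMSO, 38 of the 39 genes were called lower and 0 higher, against 2.02% and 1.36% of all genes. Those DMSO arrays enter the later effect, so these counts are a description. The number 43 depended on single arrays and on the arrays in the fit: with the 24 arrays of 0.5 mM and DMSO alone it was 3, all higher at the later times. Among the 12 early arrays, omitting a 0.5 mM array of 12 h (replicate 1, 2 or 3) left 24, 28 or 22 genes, and omitting DMSO 12 h replicate 1 or 2 left 26 or 15. Omission of 0.5 mM APAP 24 h replicate 1 left 22, and of DMSO 24 h replicate 1 or 3 left 23 or 25. Among the later arrays, omitting DMSO 48 h replicate 1, 2 or 3 gave 72, 68 or 154, omitting replicate 3 of 0.5 mM APAP gave 26 at 48 h and 25 at 72 h, and omitting DMSO 72 h replicate 1 gave 28.

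Read the other way, the genes of the later low-dose response were already displaced at 12 and 24 h. At 48 and 72 h, 628 genes were higher and 269 lower at 0.5 mM than in DMSO. At 12 and 24 h, 579 of the 628 (92.2%) were above DMSO, with a median of 0.18, against 52.1% of all genes, and 246 of the 269 (91.4%) were below it, with a median of -0.15, against 47.9%. Early, 15 and 4 of them passed the adjusted test, and 247 (39.3%) and 89 (33.1%) had an unadjusted p under 0.05 in the same direction, against 4.85% and 3.49% of all genes. Without DMSO 48 h replicate 1 the lists held 388 and 139 genes, of which 93.6% and 86.3% were displaced in the same direction early, and 53 and 6 passed. Without DMSO 24 h replicate 1 they held 616 and 257, of which 92.7% and 93% were, and 6 and 1 passed. Without the pair of high actin difference they held 376 and 154, of which 93.1% and 79.9% were, and 19 and 1 passed.

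This displacement was seen in each of the 6 treated arrays. The median of the 628 genes, measured from the DMSO mean of the same time, was 0.15, 0.14 and 0.14 in the 0.5 mM arrays at 12 h and 0.16, 0.30 and 0.30 at 24 h. In the DMSO arrays it lay between -0.04 and 0.05. For the 269 lower genes it was -0.12, -0.08 and -0.15 at 12 h, -0.20, -0.17 and -0.18 at 24 h, and between -0.05 and 0.07 in DMSO. The 0.5 mM arrays therefore did not overlap the DMSO arrays in either list at either time.

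The 30 genes were also read at the high dose at 48 and 72 h. That difference uses none of the arrays of 12 and 24 h, and it shares its DMSO controls with the later low-dose comparison. At 10 mM, 20 of the 23 higher genes were called higher, where 20.7% of all genes were, and all 7 lower genes were called lower, where 20.3% were. Their median changes there were 1.92 and -1.03, and without DMSO 48 h replicate 1 the same numbers, 20 and 7, passed. At 12 and 24 h both doses share the DMSO arrays, so their changes are only set side by side. The 23 higher genes had a median change of 0.55 at 0.5 mM and 1.01 at 10 mM, and the 7 lower genes -0.39 and -0.87.

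Tested directly, 10 mM differed from 0.5 mM at 12 and 24 h in 6538 genes, with 3406 higher (18.0%) and 3132 lower (16.6%). Among the 23 genes higher at 0.5 mM, 13 were higher at 10 mM than at 0.5 mM, 3 were lower and 7 did not pass. Among the 7 lower genes, 6 were lower again at 10 mM and 1 did not pass. The choice of the 23 and 7 used the same 0.5 mM arrays. ENSG00000197299 was higher at 10 mM by 0.73 (limma, adjusted p = 0.00012) and ENSG00000153944 lower by 0.76 (-0.76, adjusted p = 2.0e-10). In 1 of the 23 genes the doses lay on opposite sides of DMSO, with 0.50 at 0.5 mM and -0.52 at 10 mM (difference -1.02, adjusted p = 4.9e-09). At 0.5 mM that gene was near the threshold (adjusted p = 0.049), and its arrays overlapped DMSO at 24 h.

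The called genes also moved with time in culture. From 12 to 24 h in DMSO the median change was -0.36 in the 23 higher genes, of which 9 were called lower and 0 higher, and 0.40 in the 7 lower genes, of which 3 were called higher and 0 lower. In all genes 2.01% were called lower and 1.91% higher over this interval. At 0.5 mM the medians over the same interval were -0.35 and 0.34, with 5 of the 23 called lower (2.15% of all genes) and 2 of the 7 called higher (1.31%). Without DMSO 24 h replicate 1, 7 of the 23 were called lower in DMSO (0.856% of all genes) and 1 of the 7 higher (1.03%). The early differences rest on these same DMSO and 0.5 mM arrays, so the values are a description. In the 10 mM arrays, which enter those differences only through the spread, the medians were -0.15 and 0.28, and 5 of the 23 were called lower and 4 higher, against 5.54% and 5.33% of all genes. Of the 7, 2 were called higher and 1 lower there. From 48 to 72 h in DMSO, on other arrays again, 4 of the 23 were called lower and 1 higher, against 2.02% and 1.36% of all genes, and none of the 7 was called. Without DMSO 48 h replicate 1, 8 of the 23 were called lower (4.98% of all genes) and none higher (3.56%), and 1 of the 7 was called lower.

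Relative to DMSO at 12 h, the median level of the 23 genes in DMSO moved to -0.36, -1.08 and -0.89 from 24 to 72 h. At 0.5 mM it was 0.55, 0.23, -0.27 and -0.51 from 12 to 72 h. At 10 mM it was 0.86, 0.59, 0.60 and 0.67. The 0.5 mM median lay above the DMSO median at all 4 times. At 12 and 24 h this order follows from the way the genes were called. The 0.5 mM median fell at each step, while the DMSO median fell until 48 h and stood higher again at 72 h. From 48 to 72 h the median change in DMSO over the 23 genes was -0.05 with all arrays and -0.20 without DMSO 48 h replicate 1. The 10 mM cells stayed above the DMSO 12 h level at all 4 times. The 7 lower genes mirrored this in part, with DMSO at 0.40, 0.42 and 0.30 from 24 to 72 h and 0.5 mM at -0.37, -0.03, 0.23 and 0.12.

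**Figure D4:**
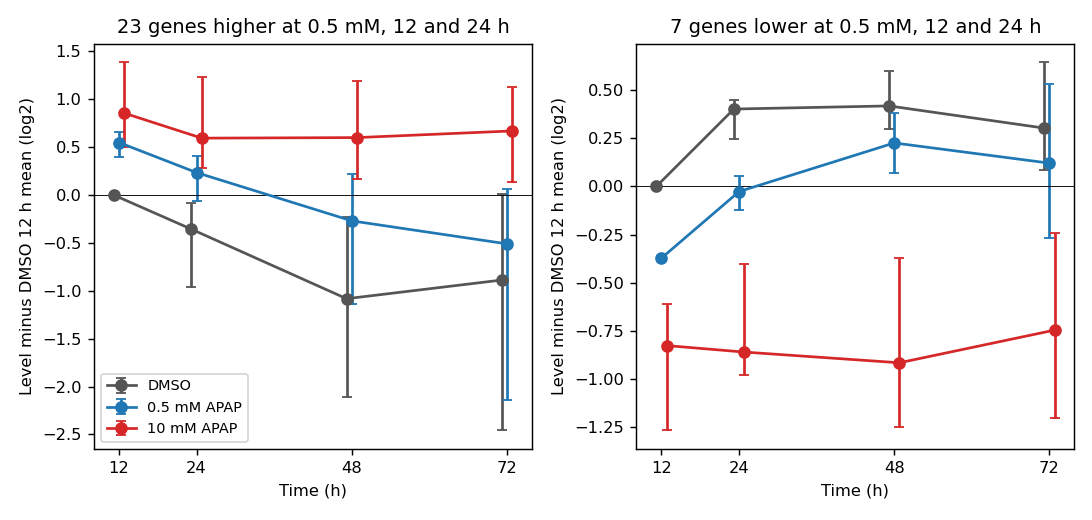
Median log2 level of the 23 higher and the 7 lower genes relative to DMSO at 12 h, by time and treatment; bars span the interquartile range over genes, not over arrays. DMSO falls to -1.08 at 48 h in the higher genes while 10 mM stays between 0.59 and 0.86, and 0.5 mM lies between them at each time. The order of 0.5 mM and DMSO at 12 and 24 h follows from the way the genes were called.

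The number of 30 depended on which arrays set the spread. With only the 12 arrays of this comparison in the fit, 120 genes were higher and 40 lower, with 27 of the 30 among them; with the 18 arrays of 12 and 24 h the counts were 135 and 26. Of the 120, 116 were above DMSO at 48 and 72 h at 0.5 mM, and 93 were called higher there (3.32% of all genes; 79 without DMSO 48 h replicate 1, 78 without the pair of high actin difference), while at 10 mM 112 were called higher (20.7% of all genes) and 2 lower. Of the 40, 15 were called lower at 0.5 mM (1.42% of all genes; 13 and 6 without those arrays) at those times, and at 10 mM 36 were called lower (20.3% of all genes) and 1 higher. The 12 arrays that chose the 160 genes enter these later changes only through the spread. With the 24 arrays of 0.5 mM and DMSO at all times, 8 genes passed, and with array weights 247 did.

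Leaving out an array of the comparison mostly lowered the count. Omitting 0.5 mM APAP 12 h replicate 1, 2 or 3 left 12, 14 or 15 genes, and omitting DMSO 12 h replicate 1 or 3 left 11 or 10. Omitting 0.5 mM APAP 24 h replicate 2 or 3 left 18 or 11, and omitting DMSO 24 h replicate 1, 2 or 3 left 9, 16 or 19. Of arrays outside the comparison, omission of 0.5 mM APAP 48 h replicate 1 gave 18 and that of DMSO 48 h replicate 1 gave 86. Of the 30 genes, 5 passed in all 12 fits that left out an array of the comparison, and 14 passed in at least 6 of them. ENSG00000197299, ENSG00000174371 and ENSG00000066084 were among the 5. ENSG00000153944 passed in 11. The gene called at 12 h was lost when any of the 6 arrays of 12 h was omitted, and 2 genes passed there on omission of 0.5 mM APAP 48 h replicate 2. At 24 h the 3 genes became 1 on omission of 0.5 mM APAP 24 h replicate 1 or 3, and 0 on omission of its replicate 2 or of DMSO 24 h replicate 1 or 2. On omission of DMSO 24 h replicate 3, 2 genes passed, neither of them among the 3. They became 36 on omission of DMSO 48 h replicate 1.

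**Figure D5:**
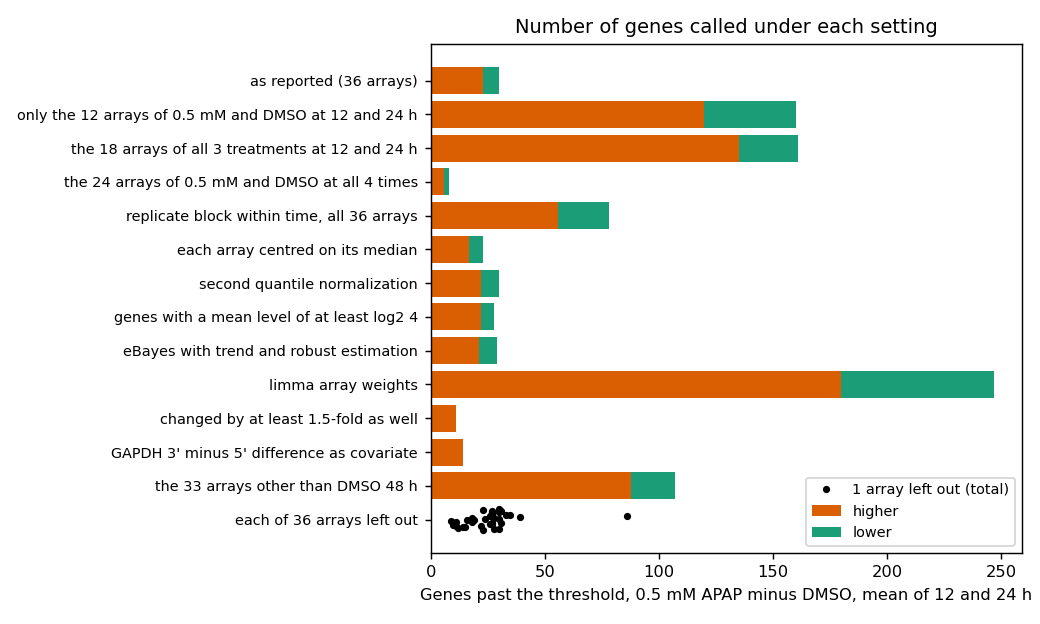
Number of genes past the threshold for 0.5 mM APAP minus DMSO, mean of 12 and 24 h, under each setting (bars, higher and lower genes stacked) and with each of the 36 arrays left out in turn (points, totals). The count runs from 8 to 247 over settings, and most points lie under 40, with 86 the highest.

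One measure of RNA condition also differed between the treatments at 12 h. The GAPDH control has rows for both ends of its RNA, and the level at the 3′ end minus that at the 5′ end grows as RNA breaks down. At 12 h this difference was 0.09 to 0.15 log2 at 0.5 mM and 0.00 to 0.04 in DMSO, without overlap, and at 24 h it was 0.01 to 0.14 and -0.14 to 0.07, with overlap. With it as a covariate in the fit, 14 genes passed, all higher, of which 10 were among the 30. ENSG00000153944 and ENSG00000066084 then had changes of -0.35 and -0.30. Its part in the result was not tested beyond this fit.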

How the data were processed

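RNA levels in HepG2 cells were measured on 36 Affymetrix arrays. The authors deposited log2 levels, with a column for each array, which came from RMA, per the submitters' processing notes. Its version, the probe set definition and the genome build were not given in the sources used here. Because RMA gives every array nearly the same distribution, a shift common to most genes would not be seen. The 62 control rows were left out of all gene tests. No filter or further scaling was applied.

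A mean for each of the 12 groups (3 treatments, 4 times) was fitted in limma (version 3.58.1, under R 4.3.3) by lmFit, then eBayes with default settings, with 24 residual degrees of freedom. Contrasts were tested with Benjamini-Hochberg adjustment over 18919 genes and a threshold of 0.05. Simulated arrays held 200 changed genes of 18919 and independent noise. On them the mean contrast recovered 83.6%, 98.5% and 100% of log2 changes of 0.5, 1 and 2, with 5.05% false calls. There 198 genes were called, against 30 in the data, so the adjusted threshold was easier to pass.

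The groups, contrasts and lists were chosen with earlier results of these data known. The rule for named genes and the 34 gene lists with cell type markers needed gene symbols; with 0 of 18919 identifiers matched to the GRCh38.p14 table, the lists were not run, and the 2 higher and 2 lower genes of smallest p are given by identifier, as the rule provides. Genes described without an identifier were picked after their values were seen. The arrays' number limits the precision. Figures were drawn with matplotlib 3.10.9.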

Additional observations from a re-analysis of the deposited data

Results flagged for a closer look

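The effect of 0.5 mM APAP differed between the early times (mean of 12 and 24 h) and the later times (mean of 48 and 72 h) in 43 genes. The difference was tested directly in limma, at an adjusted p under 0.05. In 39 of them the later effect was the higher one, and in 4 the earlier one was. Leaving out each of the 36 arrays in turn gave 15 to 154 genes.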

How the results depend on the processing

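The alternatives were other sets of arrays in the fit, a replicate block, centring on array medians, a second quantile normalization, a filter at a mean level of log2 4, limma's array weights, its trended and robust prior, a 1.5-fold minimum, and each of the 36 arrays left out. The GAPDH covariate and the fit of 33 arrays without DMSO 48 h were added after seeing the data, as were the 24 arrays for 12 h, 24 h and their difference, and the reading of called genes without arrays that stand apart. For the mean of 12 and 24 h, 30 genes became 160 with only the 12 arrays, 161 with the 18 arrays of those times, 8 with the 24 arrays of 0.5 mM and DMSO, 247 with array weights, 11 with the minimum change, 14 with the GAPDH covariate, 107 with the 33 arrays, and 9 to 86 with an array left out. After median centring, 17 were higher and 6 lower. At 12 h, 1 gene became 0 with the 12 arrays (1263 at an unadjusted p under 0.05 in limma), 0 with the GAPDH covariate (921), 0 with the 24 arrays (852), 37 with array weights and 0 to 2 with an array left out. At 24 h, 3 became 56 with the 12 arrays, 69 with the 18, 19 with array weights, 6 after quantile normalization, 0 with the GAPDH covariate (1135 unadjusted in limma), 0 with the 24 arrays (1167), 36 with the 33 arrays and 0 to 36 with an array left out. The difference between 24 and 12 h stayed at 0 genes in limma under all of these settings, with 126 to 973 at an unadjusted p. The early and late effects differed in 43 genes, in 3 with the 24 arrays, in 68 with array weights and in 15 to 154 with an array left out. The 2 doses differed in 6538 genes, in 2483 with the minimum change and in 6109 to 6683 with an array left out. The minimum change removes genes by construction; the cause of the other shifts was not tested.

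Replicate numbers come from the titles. Deviations of 0.5 mM and DMSO arrays from their group means were correlated. With like numbers r was 0.08, 0.12 and -0.03 at 12 h and 0.02, 0.22 and 0.30 at 24 h. Between unlike numbers r was -0.17 to 0.11 at 12 h and -0.34 to 0.11 at 24 h. The dap mean at 12, 24 and 48 h was 12.96 to 13.39 in replicate 3 of every treatment. In the other replicates of those times it was at most 12.40. At 72 h it did not follow the number. The main fit did not pair arrays by number, and a batch shared by number was not tested beyond the replicate block. With the replicate block within time, 78 genes passed in the mean of 12 and 24 h, with all 30 among them, 0 at 12 h (1198 at an unadjusted p under 0.05 in limma) and 5 at 24 h. Not every array correlated best with its own number.

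Of 192 values of the 4 named genes under these settings, 187 kept their direction and their side of the threshold, 5 missed it and 0 changed direction. The 4 genes were chosen by smallest p on these same arrays. Many settings alter only the spread or the threshold and leave the estimated change as it was, so the direction could not change in them.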
